A study of Mus musculus with 5 samples.

Results

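The chromosome 15 neighbours of Klf10 are the genes that start between positions 18300000 and 58300000 of mouse chromosome 15 (GRCm38), about 20 Mb to each side of the Klf10 gene. They were compared between Treg preparations of mice labelled as wild type or as lacking KLF10 in CD4+ T cells. Of 251 genes that start in this window, 75 had at least 20 counts summed over the 5 libraries and were kept as members, out of 48440 genes in the whole table. The members were chosen by position and total count, and 72 of them are protein-coding. Klf10 itself, Rpl30, Polr2k and the genes whose names start with Eif, Mrp or Slc25a (7 genes in all) were left out by name. Distances are between the lower coordinates of the genes as the table gives them. The difference between KO and WT did not enter the choice of single members, but the window was laid around Klf10 after differences near that gene were known from these data, so the counts below describe the window and are no independent evidence about it.

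The libraries came from splenic CD4+CD25+ regulatory T cells (Tregs), the lymphocytes that hold immune responses in check. They were taken freshly, without culture, from C57B/6 mice fed a high-fat diet and enriched with magnetic beads. There were 2 WT libraries and 3 libraries of the genotype CD4-KLF10-KO, called KO here, a loss of KLF10 specific to CD4+ T cells per the titles. The labels give neither the age or sex of the mice nor the promoter that drives the deletion, and they do not say whether each library is 1 animal, so a p-value here reflects only how far these 5 libraries spread, which may be technical.

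KLF10, a Krüppel-like transcription factor with zinc fingers, is induced by TGF-β and binds GC-rich and CACCC-type DNA elements. Genes close to each other on a chromosome are inherited together. In mice made by targeting and backcrossing, DNA of the donor strain can therefore stay attached to both sides of a targeted allele. The labels do not say how the KO allele was made or from which strain the DNA around it comes, so the genotype at Klf10 and any inherited difference in the DNA around it cannot be told apart. The 75 members share a position and no common function. They include adhesion and matrix proteins, a Wnt receptor, ubiquitin ligases, a cohesin subunit and the poly(A)-binding protein Pabpc1.

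Library totals lay between 25622614 and 30521797 counts, and the members took between 0.559% and 0.598% of them. Klf10 (38294413 to 38300707, minus strand) had 668 and 588 counts in WT and 408, 331 and 271 counts in KO. All 3 KO libraries lay below WT, at 12.5 ± 3.55 CPM (SD, n = 3) against 22.3 ± 0.378 CPM (SD, n = 2), where CPM is the count relative to the TMM-scaled library total. This difference was not called by edgeR (log2 change −0.84, adjusted p = 0.136) but was by DESeq2 (adjusted p = 0.0195), and counts per gene do not show which exons the reads cover. Summed over the list, the Treg markers lay at 1421 and 1760 CPM in WT and between 1435 and 1442 CPM in KO. The 14 pan-T cell markers summed to 4164 and 3547 CPM in WT and to 3138, 3244 and 3261 CPM in KO, with a median log2 change of −0.30. Of these 14, 10 were lower in every KO library and 0 were higher in every one, and edgeR called 0. Over all genes tested, 17.4% were lower in every KO library than in both WT libraries, and 17.6% were higher. Markers of other cell types were also measured, and none of the lists had a marker at 0 in all libraries. The 5 B cell markers summed to 1857 and 2766 CPM in WT and to between 2220 and 2432 CPM in KO. The groups overlapped for all 5 B cell and all 5 neutrophil markers. Of the 4 platelet markers, 2 were higher in every KO library, and of the 4 endothelial markers, 2 were higher and 1 lower. On these lists edgeR called 0. The 10 macrophage markers summed to 423 and 639 CPM in WT and to 1126, 1486 and 1289 CPM in KO replicates 1, 2 and 3, and all 10 were higher in every KO library (3 called). The 7 erythroid markers summed to 9318 and 13035 CPM in WT and to between 35224 and 58674 CPM in KO, and all 7 were higher in every KO library (0 called by edgeR). In bulk RNA, fewer cells of a type and less RNA per cell cannot be told apart.

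Promoter sequences were found for 19 members in RefSeq's GRCm38.p6 table. Those of Sema5a and Ctnnd2 are shown because both genes were close to 0 in every KO library. Each line gives the 250 bases before the RefSeq start, 5′ to 3′ on the plus strand of GRCm38, with capitals for CACCC or GGGCGG on either strand (GGGTG or CCGCCC).
Sema5a, chr15:32244563-32244812: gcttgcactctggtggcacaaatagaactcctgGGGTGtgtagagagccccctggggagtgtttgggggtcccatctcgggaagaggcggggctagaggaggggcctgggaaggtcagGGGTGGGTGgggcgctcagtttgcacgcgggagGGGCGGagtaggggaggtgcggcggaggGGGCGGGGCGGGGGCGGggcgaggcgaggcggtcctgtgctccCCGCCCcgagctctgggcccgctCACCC
Ctnnd2, chr15:30172284-30172533: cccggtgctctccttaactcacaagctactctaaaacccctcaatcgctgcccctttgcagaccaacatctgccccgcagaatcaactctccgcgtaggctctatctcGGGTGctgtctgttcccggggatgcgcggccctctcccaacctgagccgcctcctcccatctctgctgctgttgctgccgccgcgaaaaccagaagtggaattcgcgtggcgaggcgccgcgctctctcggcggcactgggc
The Sema5a sequence holds CACCC 4 times and GGGCGG 5 times, counting both strands and overlapping matches. The Ctnnd2 sequence holds CACCC 1 time and GGGCGG 0 times. Over all 32851 promoters of the table, 52.0% hold CACCC and 32.7% hold GGGCGG in the same 250 bases. Of the 24 promoters found for members, 18 hold CACCC and 17 hold GGGCGG. All 24 belong to members from Cdh10 to Sema5a, at the low end of the window, so these counts do not describe the whole window. Fam134b, Myo10 and Cct5 have more than 1 promoter among them. The sequences of Snhg18 and Sema5a overlap, as do those of Cct5 and Fam173b. A promoter of Fam134b, whose groups overlapped, holds them 6 and 5 times, so such matches are not particular to Sema5a. Sema5a and the long RNA gene Snhg18 point away from each other, and their starts lie 151 bases apart. That of Snhg18 lies within the sequence shown, and Sema5a begins at the base after it. These matches describe letters and are not measured binding sites.

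Of the 75 members, 71 had enough counts to be tested, and 4 of these were called at a false discovery rate of 0.05. Sema5a and Matn2 fell in KO, and Ncald and Col14a1 rose. Over all 14460 genes tested, 0.284% were called, 0.0553% as lower and 0.228% as higher. The median log2 change of the tested members was −0.01, as it was over all genes, but their median absolute change was 0.19 against 0.13. Values of WT and KO libraries were fully separate for 40 of the 71 members (22 higher, 18 lower in KO), against 35.0% of all genes tested. At an unadjusted p under 0.05, 15 of the 71 members were higher and 12 lower, where 10.7% and 5.62% of all genes were. A fitted change beyond 1 on the log2 scale was seen for 8 members, against 5.86% of all genes. On the rest of chromosome 15, 1 of 455 tested genes was called, and the groups did not overlap for 34.3%.

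The members that differed most lay on both sides of Klf10. Over all genes tested, 0.284% were called and 5.86% had a fitted log2 change beyond 1. Within 5 Mb, 2 of 24 tested members were called, Matn2 and Ncald, and 2 of these 24 had a fitted log2 change beyond 1. Between 5 and 10 Mb it was 1 of 16, Sema5a, and 4 of these 16 had a fitted log2 change beyond 1. Between 10 and 15 Mb it was 0 of 14 by edgeR, with 3 higher and 3 lower at an unadjusted p under 0.05 (10.7% and 5.62% over all genes), and none of the fitted changes exceeded 1. Between 15 and 20 Mb it was 1 of 17, Col14a1, and 2 of these 17 had a fitted log2 change beyond 1. Of the members beyond 1, some met the rule of 20 counts only through WT, where they are high. These were Fzd6 within 5 Mb and Ctnnd2, Sema5a and Sdc2 between 5 and 10 Mb, so the counts by distance are a description only.

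**Figure D1:**
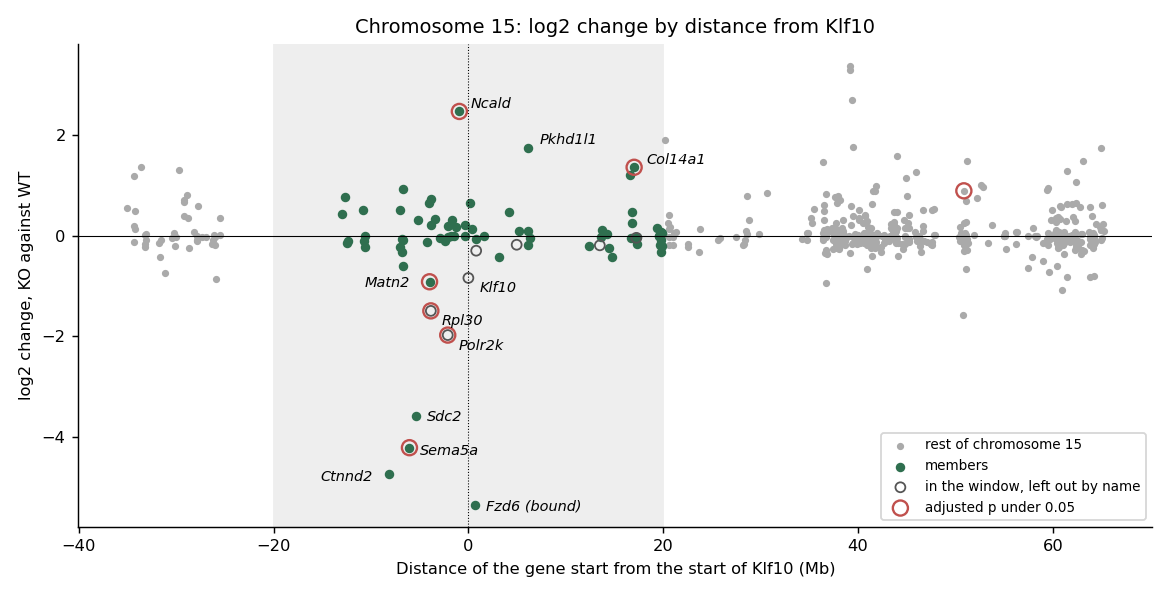
Fitted log2 change of every tested gene of chromosome 15 (y axis) by the distance of its start from that of Klf10 in Mb (x axis), with the window shaded, members in green, genes left out by name as open circles and called genes ringed in red. Ctnnd2, Sema5a, Sdc2 and Fzd6 lie lowest, all within 10 Mb of Klf10; Fzd6, at 0 counts in KO, is drawn at its bound of −5.36.

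The number of calls moved with the libraries and the tool. Leaving out WT replicate 2, KO replicate 2 or KO replicate 3 left edgeR with 0 called members. In these 3 settings, in that order, unadjusted p-values under 0.05 were found for 10, 13 and 12 higher members and for 11, 10 and 10 lower ones, of 74, 71 and 69 tested. Over all genes, 9.54%, 9.05% and 11.1% were higher and 6.35%, 3.74% and 4.57% lower at this threshold. With WT replicate 1 left out it called Sema5a alone, and without KO replicate 1 it called 7 members, adding Azin1, Pkhd1l1 and Fzd6. The DESeq2 Wald test on all libraries called 15 members, 9 higher and 6 lower, against 7.07% of all genes (5.62% higher, 1.45% lower). After scaling to the level of 14 pan-T cell genes, 16 members were called, 11 higher and 5 lower, against 7.57% of all genes (7.39% higher, 0.180% lower). This scaling raised all log2 changes by a median of 0.25. With no filter on low counts 15 of 75 members were called, 7 higher and 8 lower, against 2.82% of all genes (2.48% higher, 0.335% lower). The 4 members called in the main fit were also called in each of these last 3 settings.

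The most calls on one list were among genes of complement, matrix and cell adhesion. Of its 8 members, 7 were tested, the groups overlapped for none of the 7, and 3 were called, Sema5a and Matn2 as lower and Col14a1 as higher. Over all genes tested, the groups did not overlap for 35.0%, and 0.284% were called. The median log2 change of the list was −0.92. On this list Sema5a, Sdc2 and Ctnnd2 met the count rule for members only through WT, where they are high. A gene this low in KO could enter the list only as a fall. The separation, the number of calls and the median are therefore a description of the list only. Sema5a encodes semaphorin 5A, a membrane protein that guides growing axons. It lies on the plus strand from 32244813 to 32696341, 6.05 Mb from Klf10. It had 70 and 62 counts in WT replicates 1 and 2 and 4, 3 and 3 counts in KO replicates 1, 2 and 3. Every KO library lay far below both WT libraries, at 0.123 ± 0.0301 CPM (SD, n = 3) against 2.34 ± 0.050 CPM (SD, n = 2). The log2 change was −4.22 (SE 0.32, edgeR adjusted p = 0.0142), and the call was also made without WT replicate 1 or KO replicate 1.

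Snhg18, a host gene of small nucleolar RNA, lies next to Sema5a on the minus strand, from 32240565 to 32244662. It had 10 and 16 counts in WT and 0, 0 and 1 counts in KO. It was too low for the main test. The pooled level was 38.0 times as high in WT as in KO (95% exact interval for counting error only, 6.24 to 1558), and the gene was called with no filter (edgeR adjusted p = 0.0354). Both genes of this divergent pair were thus near 0 in the same 3 libraries. Snhg18, Ctnnd2, Sdc2 and Snx31 fall outside the rule for named genes and were picked after their values were seen.

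Ctnnd2 encodes δ-catenin, a protein of cell junctions known mainly from neurons, and Sdc2 encodes syndecan 2, a heparan sulfate proteoglycan of the cell surface. Ctnnd2, 8.12 Mb from Klf10, had 15 and 10 counts in WT and 0, 1 and 0 counts in KO. Its pooled level was 36.5 times as high in WT (95% exact interval 5.98 to 1501, counting error only; edgeR adjusted p = 0.0723). Sdc2, 5.37 Mb from Klf10, had 25 and 11 counts in WT and 0, 2 and 2 counts in KO. Its log2 change was −3.58 (SE 0.74), which did not pass in the main test (edgeR adjusted p = 0.0843). For both genes the KO libraries lay below both WT libraries, and both were called with no filter and with pan-T cell scaling, while DESeq2 gave no adjusted p.

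Fzd6, a Frizzled receptor for Wnt proteins, is the third tested member above Klf10, 0.712 Mb away (39006280 to 39038186). It had 34 and 50 counts in WT and 0 counts in all 3 KO libraries. Against a floor of 3 counts over the KO group, 0.0364 CPM, its level was at least 40.9-fold lower in KO than the pooled 1.49 CPM of WT. The fit did not call it (edgeR adjusted p = 0.0635), whereas it was called by DESeq2 (adjusted p = 1.7e-06), with no filter, with pan-T cell scaling, without KO replicate 1 and without the receptor, haemoglobin, mitochondrial and rRNA genes. Its adjusted p over all alternatives ran from 1.7e-06 to 0.181. Snx31, a sorting nexin gene 1.79 Mb from Klf10, had 17 and 8 counts in WT and 7, 1 and 0 in KO and was not tested. Its KO replicate 1 lay just under the lower WT library.

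In the whole table, 21 of the 15712 genes with at least 20 counts (0.134%) had a mean CPM more than 8-fold lower in KO. Of these 21 genes, 5 were members, Ctnnd2, Snhg18, Sema5a, Sdc2 and Fzd6, and the other 16 lay on 8 other chromosomes, with 0 elsewhere on chromosome 15. More than 8-fold higher were 43 genes (0.274%), of which 0 were members. This threshold was chosen after the values were seen and carries no test. In the order named, the 5 members had 25, 26, 132, 36 and 84 counts in WT and 1, 1, 10, 4 and 0 counts in KO. They thus met the rule of 20 counts only through WT, where they are high, so their number is a description and no support for a difference in the window. The 5 genes start between 30172593 and 39006280.

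Matn2, which encodes the matrix protein matrilin 2, was the more abundant of the called members that fell. It lies 3.99 Mb from Klf10, from 34306680 to 34436242 on the plus strand. It had 643 and 472 counts in WT and 265, 270 and 324 counts in KO. The 3 KO libraries lay close together at 10.4 ± 0.177 CPM (SD, n = 3), below WT at 19.7 ± 2.19 CPM (SD, n = 2). The log2 change was −0.92 (SE 0.11, edgeR adjusted p = 0.0450). Ext1, an enzyme that builds heparan sulfate chains, averaged 28.9 ± 0.643 CPM over the WT and 21.6 ± 2.31 CPM over the KO libraries (log2 change −0.42, edgeR adjusted p = 0.121), and only DESeq2 called it (adjusted p = 0.0394).

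**Figure D2:**
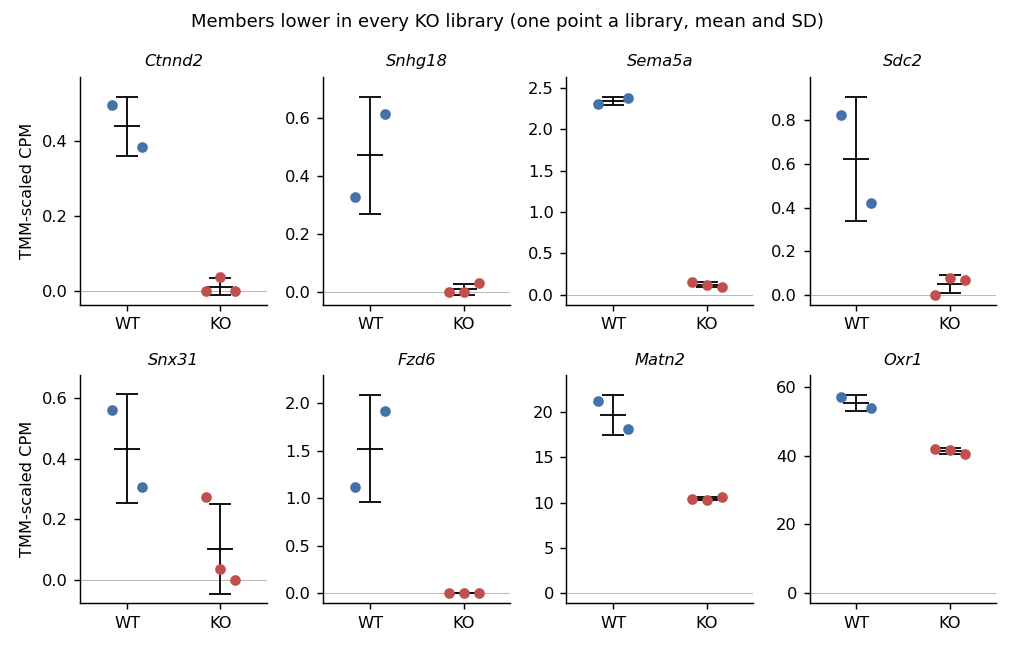
TMM-scaled CPM (y axis) of 8 members in the 2 WT libraries (blue) and the 3 KO libraries (red), with the mean and SD in black. Fzd6 is at 0 in all KO libraries, Ctnnd2, Snhg18, Sema5a and Sdc2 are near 0, and Matn2 and Oxr1 keep part of their WT level.

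Ncald showed the largest rise in the window. It encodes neurocalcin δ, a calcium sensor best known from neurons, and lies on the minus strand from 37366175 to 37792570, so its start in the table is 0.928 Mb from that of Klf10. It had 19 and 10 counts in WT and 65, 75 and 96 counts in KO, which is 0.505 ± 0.172 CPM (SD, n = 2) and 2.85 ± 0.300 CPM (SD, n = 3). Each KO library exceeded both WT libraries. The fitted rise was 5.54-fold (log2 change 2.47, SE 0.30, edgeR adjusted p = 0.0492), close to the threshold, and the call was lost with DESeq2 size factors.

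Col14a1, the gene of collagen XIV, a collagen bound to fibril surfaces, rose 2.57-fold at the far end of the window, 17.0 Mb from Klf10 (55307750 to 55520803). It had 205 and 138 counts in WT and 352, 416 and 517 counts in KO, that is 6.03 ± 1.04 CPM (SD, n = 2) and 15.5 ± 1.60 CPM (SD, n = 3). The groups did not overlap, and the log2 change was 1.36 (SE 0.16, edgeR adjusted p = 0.0467). Enpp2, at 16.5 Mb with 4 other members between it and Col14a1, encodes autotaxin, the secreted enzyme that makes lysophosphatidic acid. It had 44 and 32 counts in WT and 83, 79 and 92 counts in KO. It was higher in every KO library at a log2 change of 1.20 (SE 0.21), which did not pass (edgeR adjusted p = 0.0723; DESeq2 adjusted p = 0.0026).

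Pkhd1l1, which encodes the large membrane protein fibrocystin-L, had 94 and 90 counts in WT and 382, 213 and 307 counts in KO. KO replicate 1 was the highest at 14.9 CPM, and all 3 KO libraries lay at more than the higher WT library's 3.45 CPM. The log2 change was 1.75 (SE 0.29) and was not called over all libraries (edgeR adjusted p = 0.0683), but was called without KO replicate 1 (edgeR adjusted p = 0.0230), with no filter, with pan-T cell scaling and by DESeq2. Azin1, the antizyme inhibitor that sustains polyamine synthesis, is the first tested member above Klf10, 0.193 Mb away. It was at 96.9 and 95.6 CPM in WT and at 177, 138 and 137 CPM in KO. The log2 change was 0.65 (SE 0.12; adjusted p = 0.0777 in edgeR; DESeq2 adjusted p = 3.7e-04).

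The other members among the 10 with the largest positive changes had fitted changes between 0.51 and 0.93 on the log2 scale and were not called by edgeR. Cmbl, a hydrolase gene, averaged 0.920 ± 0.0522 CPM over the WT (SD, n = 2) and 1.76 ± 0.238 CPM over the KO libraries (SD, n = 3). Myo10, a myosin of filopodia, was at 9.34 ± 1.16 CPM and 15.8 ± 3.04 CPM. Rida, which removes reactive imines formed in amino acid metabolism, was at 10.2 ± 1.44 CPM and 17.0 ± 1.65 CPM. Laptm4b, a lysosomal membrane protein, was at 9.95 ± 1.64 CPM and 15.6 ± 0.962 CPM. Ank, which exports pyrophosphate from cells, was at 40.3 ± 6.22 CPM and 57.5 ± 7.55 CPM. DESeq2 called 4 of these 5 genes, all but Cmbl, with adjusted p-values between 6.2e-04 for Rida and 0.0321 for Ank. Over all genes tested it called 5.62% as higher. The 5 genes were named for large rises with groups that do not overlap, so a high share of calls follows in part from the choice.

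These 10 higher members stand beside higher macrophage and erythroid markers in the same 3 libraries, and the part of those cells in them was not tested. Of the 10 genes, 4 were highest in KO replicate 1, which also had the highest erythroid sum, and another 4, Ncald, Col14a1, Myo10 and Rida, had their lowest KO value there. These 4 were highest in KO replicate 3, and the 2 highest in KO replicate 2, which had the highest macrophage sum, were Cmbl and Laptm4b.

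**Figure D3:**
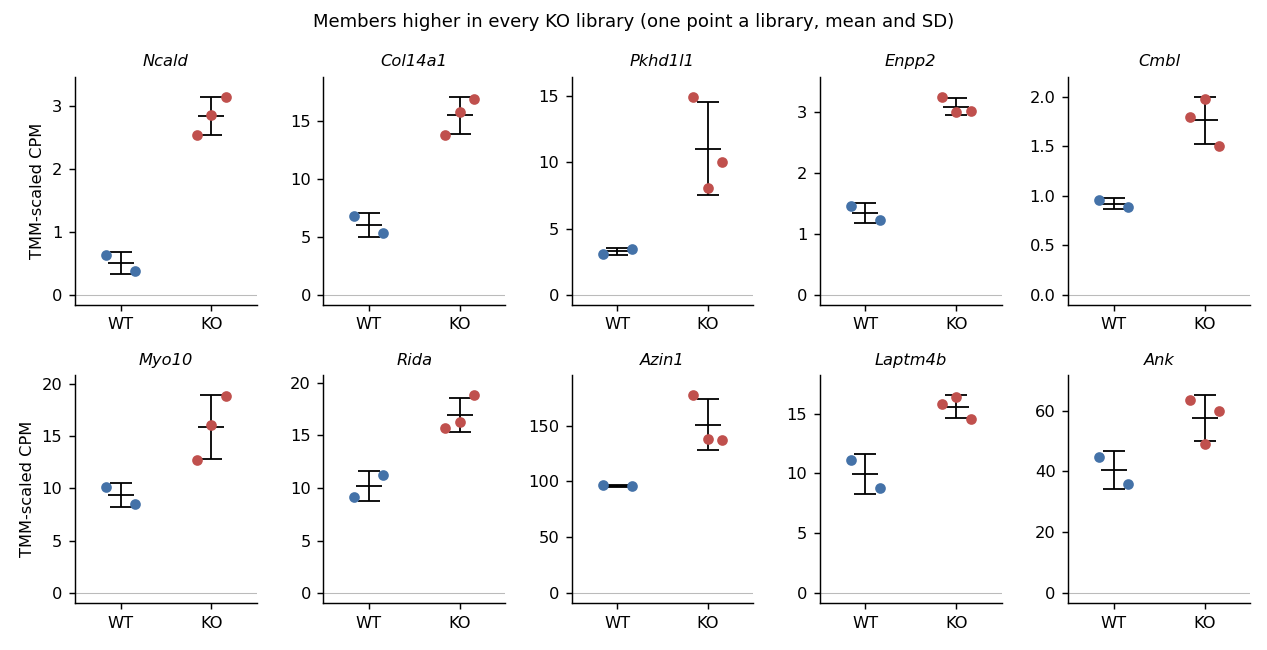
TMM-scaled CPM (y axis) of the 10 members with the largest positive fitted changes in the 2 WT libraries (blue) and the 3 KO libraries (red), with the mean and SD in black. All KO points lie above both WT points in each panel, and KO replicate 1 stands highest for Pkhd1l1 and Azin1.

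Apart from Ncald, Fzd6 and Azin1, given above, the genes next to Klf10 had small changes. Below it, Rrm2b, the p53-induced subunit of ribonucleotide reductase, averaged 35.3 ± 2.19 CPM over the WT (SD, n = 2) and 40.8 ± 8.96 CPM over the KO libraries (SD, n = 3), with 1 high value of 51.0 CPM in KO replicate 1. Zfp706, a small zinc-finger protein gene, was at 151 ± 19.1 and 172 ± 3.21 CPM. Above it, Atp6v1c1, a subunit of the proton pump of acidic organelles, was at 44.3 ± 0.652 and 48.3 ± 1.06 CPM, and Dcaf13, which acts in ribosome assembly, was at 40.6 ± 0.525 and 38.6 ± 1.67 CPM. Their log2 changes lay between −0.07 for Dcaf13 and 0.21 for Rrm2b, with edgeR adjusted p from 0.370 to 0.653. The groups did not overlap for Zfp706, Atp6v1c1 and Dcaf13, nor for 35.0% of all genes tested. Between Ncald and Fzd6 thus lay Rrm2b and Atp6v1c1, both close to WT levels. Azin1, the tested member nearest to Klf10, also lies there and was higher in every KO library (log2 change 0.65, edgeR adjusted p = 0.0777, DESeq2 adjusted p = 3.7e-04).

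Of the genes left out by name, Rpl30 and Polr2k fell, with log2 changes of −1.50 and −1.98 (edgeR adjusted p = 0.0020 and 0.0045). The other 4, Slc25a32, Eif3e, Eif3h and Mrpl13, had log2 changes between −0.30 and −0.04 and were not called (edgeR adjusted p from 0.151 to 0.891).

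Lower in every KO library by smaller steps were further members, of which edgeR called 0. Oxr1, an oxidation resistance gene 3.15 Mb above Klf10, was at 57.0 and 53.8 CPM in WT and at 42.1, 41.6 and 40.4 CPM in KO. The KO libraries lay close together, and the log2 change was −0.42 (SE 0.06, edgeR adjusted p = 0.0625; DESeq2 adjusted p = 1.5e-04). Fam173b, a methyltransferase gene 6.69 Mb below Klf10, averaged 14.5 ± 0.803 CPM over the WT and 9.62 ± 0.939 CPM over the KO libraries (edgeR adjusted p = 0.0843; DESeq2 adjusted p = 0.0061). Med30 (a Mediator subunit), Fam105a, Dap, Fbxo32 (the muscle ubiquitin ligase atrogin 1) and Trps1 (a repressor with GATA-type zinc finger) had log2 changes between −0.24 and −0.21, with edgeR adjusted p from 0.234 to 0.336. These 5 changed sign, to between 0.01 and 0.05, with pan-T cell scaling.

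By role, 61 of the 75 members fell on 9 broad lists of functions. The list names are loose for some genes, such as Angpt1 under intracellular signalling and Tbc1d31 under DNA replication. Intracellular signalling held 1 called member of 8 tested, Ncald (0.284% called over all genes), at a median log2 change of 0.17. The other 7 lists held 0 called members of 44 tested by edgeR, with 10 higher and 4 lower at an unadjusted p under 0.05 (10.7% and 5.62% over all genes). DESeq2 called 6 of these 44 as higher and 2 as lower, where it called 5.62% and 1.45% of all genes. The ubiquitin and protein turnover list had a median of −0.01 over 10 tested members, the groups not overlapping for 2 of them (35.0% over all genes). The 6 genes listed under DNA replication, repair and cohesion had a median of 0.10, the 6 transcription factors and cofactors one of 0.0010 and the 9 genes of membrane traffic and cytoskeleton one of −0.02. The 5 genes of RNA processing and translation had a median of 0.21, and the 6 genes of metabolism one of 0.32. The groups overlapped for none of these 6 (4 higher, 2 lower, where 17.6% and 17.4% of all genes were fully separate). The receptor list held 2 tested members, Fzd6 and Lrp12, a low-density lipoprotein receptor relative with overlapping groups of 6.72 ± 2.34 CPM for WT (SD, n = 2) and 6.70 ± 0.695 CPM for KO (SD, n = 3).

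**Figure D4:**
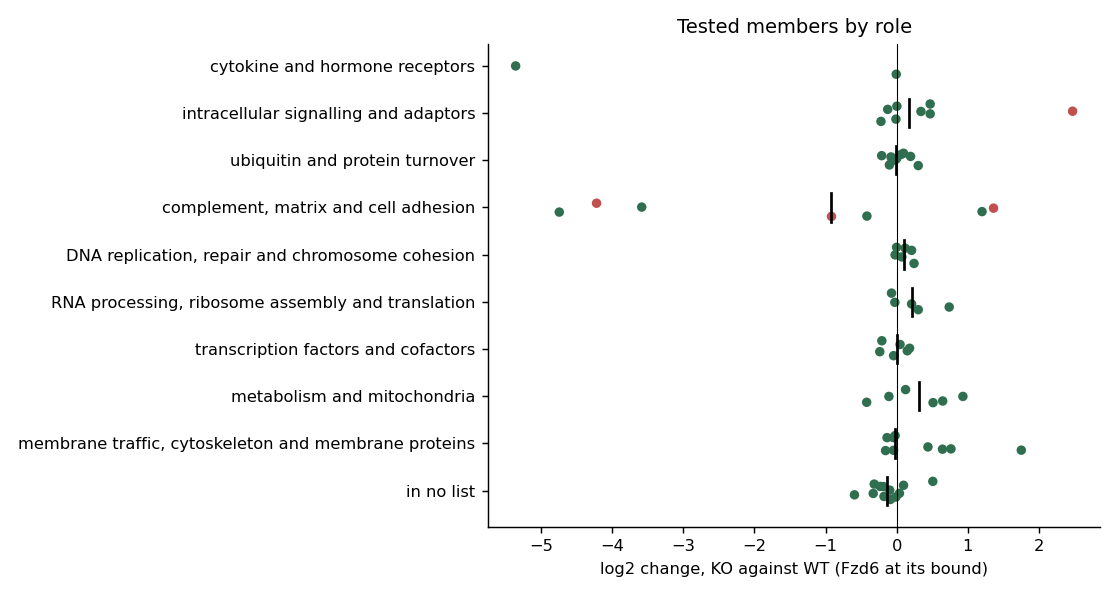
Fitted log2 change (x axis) of the 71 tested members by role list (y axis), called members in red, with a black bar at the median of each list of more than 2 genes. The adhesion and matrix list spans from −4.74 for Ctnnd2 to 1.36 for Col14a1, while the ubiquitin, replication and transcription factor lists lie close to 0; Fzd6 is drawn at its bound.

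Per length, the members spanned a wide range of levels. In TPM, which correct for gene length and depth, the median over the members was 13.7 TPM, with 42 members at 10 TPM or more and 13 under 1 TPM. The most abundant was Pabpc1, which binds the poly(A) tails of mRNA, at 819.8 TPM in WT and 889 TPM in KO. It alone took 33.3% to 34.5% of the members' counts in WT and 36.1% to 40.8% in KO, and without it the members' share of the libraries was 0.367% and 0.373% in WT and 0.354% to 0.371% in KO. In CPM, Pabpc1 averaged 1858 ± 43.1 over the WT (SD, n = 2) and 2290 ± 263 over the KO libraries (SD, n = 3), higher in every KO library, with a log2 change of 0.30 that did not pass (edgeR adjusted p = 0.225; under pan-T cell scaling the edgeR adjusted p was 0.0456).

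Next in level per length were Ywhaz, a 14-3-3 adaptor protein, at 368 TPM in WT and 322 TPM in KO, Cct5, a subunit of the cytosolic chaperonin, at 253 and 212 TPM, and Rad21, a core subunit of cohesin, at 148 and 141 TPM. None of these 3 was called by edgeR or DESeq2, and their log2 changes of CPM were −0.01, −0.08 and 0.12. Rad21 was thus lower in KO by mean TPM but higher in every KO library by CPM. The TPM of all members summed to 3343 and 3278 in WT and to between 2977 and 3209 in KO. A lower TPM in KO is therefore not by itself a fall of a single gene. Further abundant list members that neither tool called were Mtdh, Cox6c (a subunit of cytochrome c oxidase), Vps13b, Fam134b (a receptor for autophagy of the endoplasmic reticulum), Atad2 and Zhx2, with log2 changes between −0.14 and 0.15. The genes near 0 in KO had low levels per length in WT too. Sema5a stood at 0.552 TPM in WT, Fzd6 at 0.931, Snhg18 at 0.804, Sdc2 at 0.480 and Ctnnd2 at 0.189, all below the median member.

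Reads of similar or overlapping genes bear on few of these values. The longest transcripts of the members were compared with all GENCODE M21 transcripts for matches of at least 95% identity over 200 bases and 50% of the shorter transcript. A copy with at least 20 counts was found for 1 member, the pseudogene Gm10020, whose copies include Rpl15, so its 342 counts are uncertain. Overlap with another gene of at least 20 counts was found for 10 members, among them Vps13b with Cox6c and Nudcd1 with Eny2, in each pair on opposite strands. On the same strand, Gm29394 overlaps 9130401M01Rik and Zhx1, with 65 counts against 11114 in both. Since the strand setting of the counting is not given, reads of the opposite pairs cannot be assigned with certainty, and a strand setting would not separate the same-strand genes. Of the members named as called or near 0 in KO, none had such a copy or overlap.

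At the count threshold, the members just inside were Cdh10, Ctnnd2 and Snhg18 with 25, 26 and 27 counts, and the genes just outside were Abra, Zfpm2 and Osr2 with 17, 16 and 14 counts. At the ends of the window, Cdh10 and Fbxo32 were the outermost members, and the nearest genes of at least 20 counts outside were Drosha, which starts at 12824815, and Fam91a1, which starts at 58415468. Cdh10, a cadherin gene, had 2 and 2 counts in WT and 4, 6 and 11 in KO and was too low to be tested.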

How the data were processed

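Ribosomal RNA was depleted before sequencing, per the labels' protocols. The submitters' processing notes name Trimmomatic 0.36, STAR 2.5.2b and the build GRCm38. For the counting tool, annotation and strand setting, the sources used here give nothing. The authors deposited whole-number counts per gene, RPKM and TPM. A deposited column named CPM carries a further library factor, here treated as a score and not used; RPKM was not used either. Of the members' identifiers, 75 were found in GENCODE M21, which gave gene types.

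Low genes were removed by filterByExpr. The rest were scaled by TMM and entered edgeR 4.0.16's two-sided quasi-likelihood test (glmQLFit, glmQLFTest) with genotype alone in the model, in R 4.3.3, with Benjamini-Hochberg adjustment over the 14460 genes kept, members and others alike. Called means a false discovery rate of 0.05. SDs are over 2 WT or 3 KO libraries. The test was tried on simulated counts with known changes. No 2 libraries of a group were alike within sampling noise (chi-square divided by its degrees of freedom, 16.5 to 39.1).

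The members and lists were chosen with earlier results of these data known. Named members are those called, up to 10 largest positive and 10 largest negative changes with groups that do not overlap and a mean of at least 1 CPM, the 4 nearest to Klf10 on each side and the 2 most abundant of each list; 1 gene that the rule names is not reported here. Alternatives were DESeq2 1.42.0 (size factors, Wald test), pan-T cell scaling, no filter or a mean of 50 counts, robust dispersion, the replicate number as a block, leaving out each library, and leaving out receptor, haemoglobin, mitochondrial and rRNA genes. Intervals and floors cover counting error only.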

Additional observations from a re-analysis of the deposited data

How the results depend on the processing

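The number of members called was 4 in the main fit and 3 with DESeq2 size factors, 4 with robust empirical Bayes and 6 without receptor, haemoglobin, mitochondrial and rRNA genes. It was 16 with pan-T cell scaling, 15 with no filter, 15 with the DESeq2 Wald test, 0 with the stricter filter and 0 with the replicate block, and from 0 to 7 when a library was left out. Over all genes 41 were called, against 1095 with pan-T cell scaling, 589 with no filter, 23 with the stricter filter, 1022 with DESeq2 Wald, 118 without the receptor and other genes, 32 with the block and from 1 to 334 when a library was left out. Role lists with a called member numbered 2, against 1 with DESeq2 size factors, 6 with pan-T cell scaling, 6 with no filter, 0 with the stricter filter, 6 with DESeq2 Wald, 0 with the block, 4 without the receptor and other genes and 0 to 5 when a library was left out. With 0 members called by edgeR, 14 higher and 7 lower had an unadjusted p under 0.05 under the stricter filter, which removes Sema5a (of 62 tested; 11.2% and 5.41% of all genes), and 12 higher and 9 lower under the block (of 71; 9.98% and 4.88% of all genes). Matn2, Ncald and Col14a1 had enough counts to stay under the stricter filter but were not called there. The cause of these shifts was not tested.

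Libraries with the same replicate number showed little correlation of their deviations from the group means (−1.4e-04 for number 1 and 0.06 for number 2). The deviations of the 2 WT libraries mirror each other, so these values cannot show whether the numbers pair the libraries. KO replicate 3 has no partner, and calls lost under the block do not show weaker effects. Under the block, the edgeR adjusted p was 0.0719 for Sema5a, 0.100 for Matn2, 0.106 for Ncald and 0.103 for Col14a1.

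Over 41 genes and 13 alternatives, 525 log2 changes were recomputed and 21 changed sign, all for genes that were not called in either fit. With pan-T cell scaling these were Med30 (0.014), Fam105a (0.028), Dap (0.023), Fbxo32 (0.041), Trps1 (0.047), Dcaf13 (0.18), Lrp12 (0.27), Ywhaz (0.24), Mtdh (0.12), Cct5 (0.17), Cox6c (0.14), Vps13b (0.21) and Fam134b (0.12). Lrp12 also changed sign under the stricter filter (0.0020) and Ywhaz under the block (0.024). When a library was left out, Lrp12 ranged from −0.32 to 0.40, Vps13b from −0.11 to 0.041 and Ywhaz from −0.075 to 0.053. Sema5a, Matn2, Ncald, Col14a1, Fzd6, Ctnnd2 and Sdc2 kept their direction in every alternative in which they were tested. Depth limits the genes near 0 in KO, since Ctnnd2 and Snhg18 had 25 and 26 counts in WT.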
